A study of Mus musculus with 8 samples.

Results

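The genes examined here were 10 genes of mitochondrial biogenesis, dynamics and mitophagy, taken by symbol from the 17810 genes of a deposited liver RNA-Seq table. They were Ppargc1a, Ppargc1b, Tfam and Nrf1 for biogenesis, Mfn1, Mfn2 and Opa1 for fusion, Dnm1l and Fis1 for fission, and Pink1 for mitophagy. All 10 passed the expression filter, which left 12395 genes for testing. The livers came from male littermates of 2 genotypes, WT (n = 4) and HKO (n = 4), all 5 months old. Both groups ate chow until 8 weeks of age and then a high-fat diet lacking choline, called CD-HFD, over 3 months. HKO mice carried floxed miR-33 alleles and Cre recombinase under the Albumin promoter, which is active in hepatocytes. Whether the WT littermates also carried floxed alleles was not stated in the sources used here. No chow-fed mice were in the table, so diet and age were shared by both groups. By the methods of the study, mice were fasted for some hours before end-point experiments, without a distinction by genotype. RNA was extracted from whole perfused livers. A change in hepatocytes is therefore mixed with RNA of other cells, and fewer cells of a type and less RNA per cell cannot be told apart.

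Mitochondria are renewed by making new components, by fusing and dividing, and by removing damaged organelles. The coactivators PGC-1α (Ppargc1a) and PGC-1β (Ppargc1b) act with nuclear receptors and with nuclear respiratory factor 1 (Nrf1) to switch on nuclear genes for mitochondrial proteins. Among these is Tfam, whose protein packages mitochondrial DNA and is needed to transcribe it. Mitofusins join the outer membranes, OPA1 joins the inner ones, and the dynamin-related GTPase DRP1 (Dnm1l) divides the organelle. PINK1 is a kinase that accumulates on depolarized mitochondria and starts their removal. The comparison addressed whether the transcripts of this machinery differed when miR-33 was deleted in hepatocytes. Transcripts alone were measured here, not proteins or mitochondria.

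The 2 mature strands of miR-33 are shown first because their seeds, bases 2 to 8, are the letters by which a microRNA recognises its targets. The capitals mark the seed (RefSeq, GRCm38, chr15:82198127-82198147 and chr15:82198167-82198188, plus strand).
mmu-miR-33-5p: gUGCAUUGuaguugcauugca
mmu-miR-33-3p: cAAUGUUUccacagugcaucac

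Runs of 7 letters were searched in 3′ UTRs, taking for each gene the longest 3′ UTR annotated. A run was either the reverse complement of bases 2 to 8 or that of bases 2 to 7 followed by an A, given below in this order. For miR-33-5p the letters were CAATGCA or AATGCAA, and 16.2% of the 11523 tested genes with a 3′ UTR held one, against 2 of the 10 genes, Ppargc1a and Pink1. For miR-33-3p the letters were AAACATT or AACATTA, which 25.8% of the tested genes and 1 of the 10, Mfn1, held. The stretches around the 4 matches are given below, with the match in capitals (GRCm38, on the minus strand for Ppargc1a and Pink1, chr5:51455724-51455753 and chr4:138313527-138313556, and on the plus strand for Mfn1, chr3:32578773-32578802 and chr3:32579159-32579188). In Ppargc1a the match starts at base 2438 of a UTR of 3930 bases, in Pink1 at base 411 of 547, and in Mfn1 at bases 1643 and 2029 of 2098. The Pink1 match and the first Mfn1 match pair with bases 2 to 7 of the seed only, and their last letter is the added A. A match is a run of letters and was not tested as a binding site.
Ppargc1a, miR-33-5p: cacccccaggcCAATGCAgctaattttgac
Pink1, miR-33-5p: aaccacttagaAATGCAAaaacataggttt
Mfn1, miR-33-3p, first match: ccgggattgtcAACATTAtttttaaacttg
Mfn1, miR-33-3p, second match: aactttttacaAAACATTtttataagtatg

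Because Nrf1 encodes a DNA-binding factor of this pathway, promoters were searched for its motif GCGCANGCGC on both strands, in windows from 250 bases before to 50 bases after each RefSeq start. The motif lay in 4.6% of 32851 windows and in a window of 11.6% of 9921 tested genes. Of the 9 genes with a window (Ppargc1b had no entry), 2 held it, Opa1 and Pink1. Their stretches are shown with the motif in capitals (GRCm38, chr16:29579265-29579294, plus strand, and chr4:138326287-138326316, minus strand). Relative to the start site the motif begins at -59 in Opa1 and at -10 in Pink1.
Opa1: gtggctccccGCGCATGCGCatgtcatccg
Pink1: accgccccccGCGCTTGCGCacaggcgccg

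The livers had 12174339 to 18735785 estimated counts each, and 3 counts corresponded to 0.149 to 0.255 CPM, the usual scaling of a gene's count to the size of its library. Of the genes tested, 5.03% passed an adjusted p of 0.05 by edgeR's quasi-likelihood test, 206 higher and 418 lower in HKO. All 8 hepatocyte markers were present, with a summed level of 89004 to 123370 CPM in WT and 81033 to 133418 CPM in HKO livers, and 4 of the 8 were higher in HKO. Of the 8 stellate cell markers 2 were lower, with sums of 376 to 537 CPM in WT and 307 to 420 CPM in HKO. None of the Kupffer cell and endothelial markers passed the threshold, and none of the 3 cholangiocyte markers tested, of 6 listed. The cholangiocyte sum ranged from 40.6 to 51 CPM in WT and from 31 to 111 CPM in HKO. Of the other immune markers only 2 neutrophil markers were tested, and neither passed. No T, NK or B cell marker was tested, so a change in these cells could not be seen. The deleted microRNA was not analysed here, so the genotype labels were not checked against it. The sample numbers in the column names run in 1 block per genotype, so the order of the samples and the genotype cannot be told apart. HKO replicate 3 stood apart from the other HKO livers, with a chi-square per degree of freedom of 115 to 130 against each of them and of 20.2 to 34.1 among them (19.7 to 44.9 among WT livers). Without it 471 genes passed and none of the 10.

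Per kilobase of annotated exon, the 10 genes spanned an 83.1-fold range of WT means. Pink1 had the highest level, 45.1 CPM per kilobase, and Nrf1 the lowest, 0.543. Mfn2, Opa1, Dnm1l, Tfam and Fis1 followed Pink1 with 19.7, 17.9, 15.7, 15 and 14.5 CPM per kilobase, and each overlapped the next over the WT livers. Mfn1, at 11 CPM per kilobase, lay below all 5 in every WT liver. The coactivators were lower still, Ppargc1b at 5.02 and Ppargc1a at 3.17 CPM per kilobase, with no overlap between them in WT. In HKO livers the means ran from 37.6 CPM per kilobase for Pink1 to 0.606 for Nrf1. There the coactivators overlapped, since Ppargc1a reached 5.24 and Ppargc1b went down to 4.39 CPM per kilobase. These levels depend on the annotated exons, which include exons that liver may not use.

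**Figure D1:**
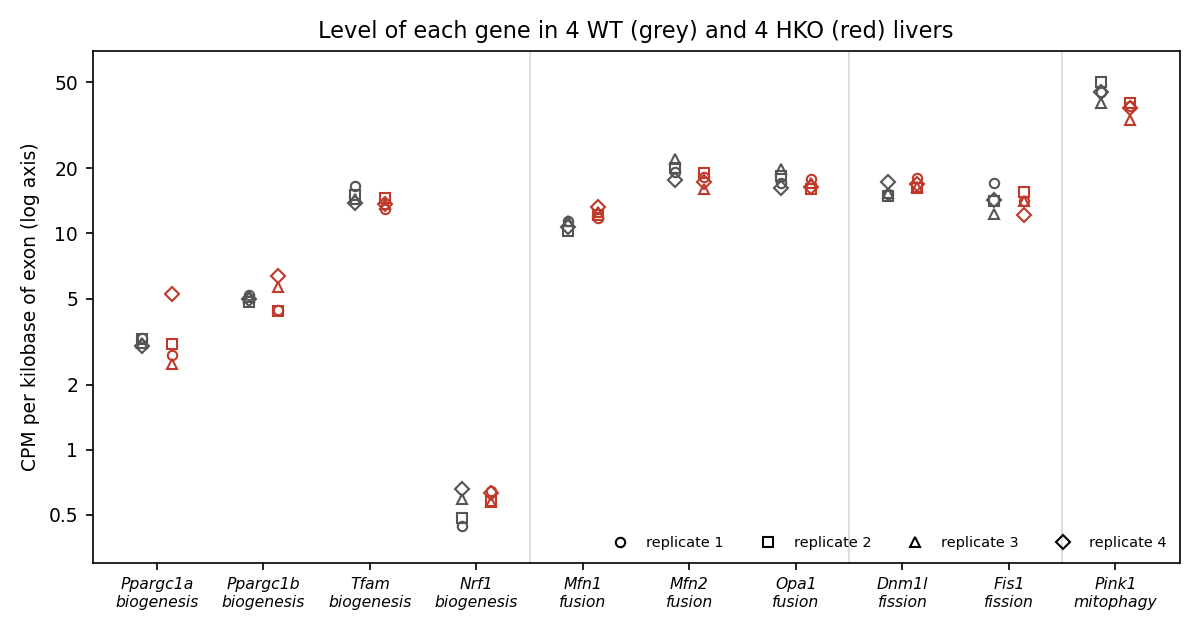
Level of each gene in CPM per kilobase of annotated exon (log axis), in 4 WT livers (grey) and 4 HKO livers (red), with a symbol for each replicate number. Pink1 lies highest, at 33.6 to 50.2, Nrf1 lowest, at 0.442 to 0.658, and both genotypes lie close together for every gene except Ppargc1a, where HKO replicate 4 stands above the other HKO livers.

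None of the 10 genes passed the adjusted threshold, against 5.03% of all genes tested. At an unadjusted p of 0.05, 2 of the 10 passed, Mfn1 and Pink1, by edgeR, by DESeq2 and by limma-voom, against 19.8% of all genes by edgeR. This count was 0 without WT replicate 2, 1 without HKO replicate 3, 1 without HKO replicate 4, 1 with the replicate number as a block, and 3 with total count scaling (Tfam, Mfn2 and Pink1). By sign 5 were higher and 5 lower in HKO (4 and 6 with total count scaling), and their median log2 fold change was 0.00, against 0.009 over all genes tested. Their median absolute log2 fold change was 0.11, against 0.16 over all genes. The largest was 0.26, a size that 31.2% of all genes exceeded. The median standard error of the log2 fold change over all genes was 0.14. Among the 10 genes only Ppargc1a (0.21) and Nrf1 (0.16) lay above it. The part of this precision in the smaller fold changes was not tested. The 95% interval of each gene, not adjusted for the number of genes, stayed within a 1.5-fold change in either direction. The exact permutation test of each gene's log2 CPM gave two-sided p-values of 0.114 to 0.971 for the 8 genes other than Mfn1 and Pink1.

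Ppargc1a (GRCm38, chr5:51454249-51567725, minus strand) encodes PGC-1α, the coactivator induced in liver by fasting. Its level was 21.7, 21.5, 20.5 and 19.8 CPM in WT replicates 1 to 4 and 18.1, 20.4, 16.4 and 34.6 CPM in HKO replicates 1 to 4. HKO replicate 4 was the highest of the 8 livers, and 2 of the other 3 HKO livers lay below every WT liver. The means were 20.9 ± 0.858 CPM for WT and 22.4 ± 8.3 CPM for HKO livers (SD, n = 4 each), and the HKO median was 19.2 CPM. The log2 fold change was 0.10 with a 95% interval of -0.37 to 0.56 (edgeR, adjusted p = 0.858). Without HKO replicate 4 it was -0.19 (edgeR, adjusted p = 0.402), so the direction rested on that liver. The hepatocyte marker sums of the HKO livers ranged from 81033 to 133418 CPM, and the part of cell content in the Ppargc1a values was not tested.

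Ppargc1a was the only one of the 10 genes with a range above 1 on the log2 CPM scale over the 8 livers, at 1.07. The tested genes whose log2 CPM profiles lay closest to it, of 11877 compared, were Dclk3, Dhps and Adssl1, with root mean square differences of 0.117, 0.123 and 0.126. Each was also highest in HKO replicate 4. Dclk3 was at 19.8 CPM there and at 10.1 to 12.7 CPM in the other 7 livers. This likeness rested largely on 1 liver.

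Ppargc1b, on chromosome 18, encodes PGC-1β, the coactivator's close relative. It was at 20.7, 19.3, 20.3 and 19.8 CPM in WT and 17.7, 17.5, 22.5 and 25.5 CPM in HKO replicates 1 to 4. The WT livers lay within a narrow band, with 2 HKO livers below it and 2 above. The means were 20 ± 0.59 and 20.8 ± 3.88 CPM (SD, n = 4 each), and the log2 fold change was 0.05 with an interval of -0.22 to 0.33 (edgeR, adjusted p = 0.868). For both coactivators the HKO livers thus spread more widely than the WT livers, a difference in spread that was not tested.

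Tfam (chr10:71225477-71238044, minus strand) encodes the mitochondrial transcription factor that packages mitochondrial DNA. It was at 73.2, 67.2, 63.8 and 61.4 CPM in WT and 57.8, 64.6, 61 and 60.5 CPM in HKO replicates 1 to 4. Of the HKO livers, 3 lay below every WT liver, and replicate 2 overlapped them. WT livers averaged 66.4 ± 5.14 CPM and HKO livers 61 ± 2.82 CPM (SD, n = 4 each), a log2 fold change of -0.12 with an interval of -0.30 to 0.05 (edgeR, adjusted p = 0.437).

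Nrf1 (chr6:30047988-30153458, plus strand), nuclear respiratory factor 1, was the least abundant of the 10, and its counts gave the widest counting error, 13.5% in the liver with the fewest. It was at 4.55, 4.96, 6.07 and 6.77 CPM in WT and 6.61, 5.94, 5.92 and 6.47 CPM in HKO replicates 1 to 4. The HKO livers lay within the upper part of the WT range. The means were 5.58 ± 1.02 and 6.24 ± 0.358 CPM (SD, n = 4 each), and the log2 fold change was 0.15 with an interval of -0.19 to 0.50 (edgeR, adjusted p = 0.657).

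Mfn1 (chr3:32529482-32579225, plus strand) encodes mitofusin 1, which tethers and fuses outer membranes. It was at 69.9, 62.5, 69.8 and 65.7 CPM in WT and 71.8, 74.4, 77.2 and 80.7 CPM in HKO replicates 1 to 4. Every HKO liver lay above every WT liver on this scale, and Mfn1 was the only 1 of the 10 genes without overlap, which 12.5% of all genes tested showed. The separation depended on the scaling: per total count Mfn1 was at 65 to 76.6 CPM in WT and 70.1 to 75.8 CPM in HKO, so the groups overlapped, and the log2 fold change was 0.09 in place of 0.18 (edgeR, adjusted p = 0.591). WT livers averaged 67 ± 3.56 CPM and HKO livers 76 ± 3.82 CPM (SD, n = 4 each), a 1.14-fold difference with a 95% interval of 1.01 to 1.27. The exact permutation test gave a two-sided p of 0.0286, the smallest that 4 against 4 livers allow, and the adjusted p over all genes was 0.198 (edgeR). The unadjusted p of 0.05 was missed without WT replicate 2, WT replicate 4, HKO replicate 3 or HKO replicate 4. Its deposited values were fractional in all 8 livers, which whole reads do not give, against 0 to 2 livers for each of the other 9 genes.

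Mfn2 (chr4:147873586-147904909, minus strand) encodes mitofusin 2, which also links mitochondria to the endoplasmic reticulum. It was at 99.9, 104, 115 and 91.4 CPM in WT and 94.3, 99.3, 83.3 and 89.6 CPM in HKO replicates 1 to 4. The groups overlapped, with 2 HKO livers below every WT liver. The means were 103 ± 9.77 and 91.6 ± 6.81 CPM (SD, n = 4 each), and the log2 fold change was -0.16 with an interval of -0.36 to 0.03 (edgeR, adjusted p = 0.348). By estimate the mitofusins differed from WT in opposite directions, with total count scaling too, though neither passed the adjusted threshold.

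Their ratio within each liver, a quantity chosen after these values were seen and free of library scaling, is given without a test. Mfn1 was at 0.7, 0.603, 0.607 and 0.718 of the Mfn2 CPM in WT replicates 1 to 4 and at 0.761, 0.75, 0.927 and 0.901 in HKO replicates 1 to 4. The lowest HKO ratio was above the highest WT ratio, and HKO replicate 3 had the highest ratio. How often the ratios of other gene pairs separate the groups was not examined. The means were 0.657 ± 0.0605 and 0.835 ± 0.0924 (SD, n = 4 each).

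Opa1 (chr16:29579334-29654602, plus strand) encodes the GTPase that fuses inner membranes and shapes cristae. It was at 135, 146, 156 and 128 CPM in WT and 141, 127, 135 and 129 CPM in HKO replicates 1 to 4. The groups overlapped over most of their range. The means were 141 ± 11.9 and 133 ± 6.27 CPM (SD, n = 4 each), with a log2 fold change of -0.09 and an interval of -0.26 to 0.09 (edgeR, adjusted p = 0.604).

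Dnm1l (chr16:16312228-16359031, minus strand) encodes DRP1, which constricts and divides mitochondria. It was at 79.3, 77.2, 80.2 and 89.6 CPM in WT and 93.5, 84.2, 85.1 and 87.7 CPM in HKO replicates 1 to 4. Every HKO liver lay above 3 of the WT livers, and WT replicate 4 overlapped them. The means were 81.6 ± 5.49 and 87.6 ± 4.17 CPM (SD, n = 4 each), with a log2 fold change of 0.10 and an interval of -0.06 to 0.27 (edgeR, adjusted p = 0.507). An antisense gene, Gm49521, covers 243 of its exonic bases, and whether reads were counted by strand was not stated.

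Fis1 (chr5:136953275-136966234, plus strand) encodes a small outer membrane protein of the fission machinery. It was at 29.3, 24.3, 21 and 24.6 CPM in WT and 24.2, 26.6, 24.2 and 20.8 CPM in HKO replicates 1 to 4. The groups overlapped almost completely. The means were 24.8 ± 3.39 and 23.9 ± 2.38 CPM (SD, n = 4 each), with a log2 fold change of -0.05 and an interval of -0.30 to 0.20 (edgeR, adjusted p = 0.866).

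Pink1 (chr4:138313410-138326296, minus strand), the mitophagy kinase, had the largest estimated difference of the 10. It was at 120, 134, 107 and 121 CPM in WT and 104, 107, 89.9 and 102 CPM in HKO replicates 1 to 4. HKO replicate 2 lay just above WT replicate 3, and the other 3 HKO livers lay below every WT liver. WT livers averaged 120 ± 11.2 CPM and HKO livers 101 ± 7.45 CPM (SD, n = 4 each), a fold of 0.835 with a 95% interval of 0.731 to 0.955. The exact permutation test gave a two-sided p of 0.0571, and the adjusted p over all genes was 0.124 (edgeR). Per total count the groups did not overlap, as in 13.2% of all genes, with 117 to 140 CPM in WT and 85.2 to 109 CPM in HKO (log2 fold change -0.34; edgeR, adjusted p = 0.0548). HKO replicate 3 had the lowest Pink1 level, and without it the log2 fold change was -0.21 in place of -0.26. Mir7019 and Gm27646 overlap its exons on the same strand.

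**Figure D2:**
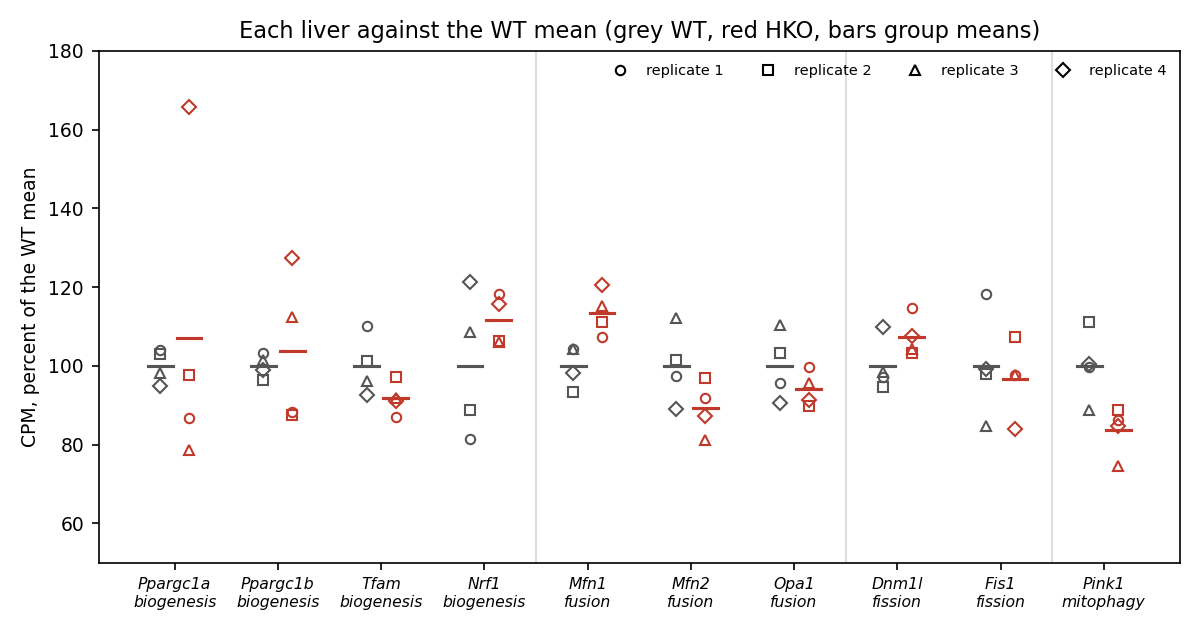
CPM of each gene in each liver as a percent of the WT mean of that gene (grey WT, red HKO, bars group means, a symbol for each replicate number). CPM is TMM-scaled. The Mfn1 values of HKO livers, 71.8 to 80.7 CPM, all lie above the WT values (they overlap per total count), 3 of the 4 Pink1 values of HKO livers lie below every WT value, and Ppargc1a is set apart in HKO replicate 4 at 34.6 CPM.

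**Figure D3:**
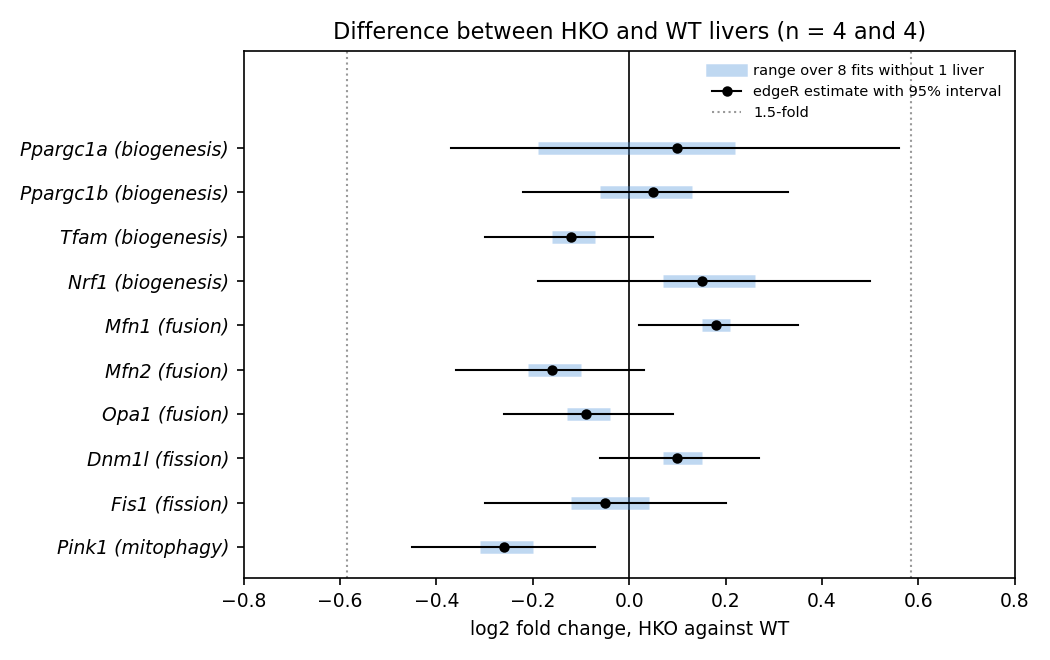
Log2 fold change of HKO against WT for each gene (points) with its unadjusted 95% interval (lines) and the range over 8 fits that each left out 1 liver (blue bars); dotted lines mark a 1.5-fold change. The intervals of Mfn1, 0.02 to 0.35, and Pink1, -0.45 to -0.07, lie to 1 side of 0, the other 8 cross it, and the blue bars of Ppargc1a, Ppargc1b and Fis1 cross it too.

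In the surrounding pathways, 137 of 142 further genes could be tested and 7 passed the threshold, 1 higher and 6 lower. That was 5.11%, against 5.03% of all genes, with 1.66% of all genes called higher and 3.37% lower. Of 134 of these genes with a 3′ UTR, 17.2% held a miR-33-5p match, against 16.2% of all genes. Of the 7 that passed, 3 held one (Esrrg, Ppara and Ghitm), all lower in HKO. Pparg, Miga2 and Pisd, also lower, and Tfb1m, the 1 gene called higher, held none. Whether matches and calls go together was not tested. At an unadjusted p of 0.05, 27 of the 137 passed, against 19.8% of all genes. The groups did not overlap in 13 of the 137, against 12.5% of all genes. Counts by sign below depend on the scaling, since total count scaling lowered the median of all genes from 0.009 to -0.08.

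Among 27 regulators and partners of the coactivators, 3 fell and none rose, and 10 had an unadjusted p under 0.05. The list median was 0.04 on the log2 scale, with 17 higher and 10 lower by sign. Esrrg, the orphan nuclear receptor ERRγ that PGC-1 coactivators bind, was at 13.1, 11.7, 11.8 and 10.1 CPM in WT and 2.77, 6.48, 4.11 and 3.83 CPM in HKO replicates 1 to 4. No HKO liver came near the lowest WT liver, and the log2 fold change was -1.44 ± 0.22 (SE; edgeR, adjusted p = 0.0045). Pparg, the lipid-storage nuclear receptor whose coactivation gave PGC-1 its name, was at 22, 20.8, 16.3 and 19.4 CPM in WT and 9.38, 11, 7.44 and 4.94 CPM in HKO. Its groups were also well apart, with a log2 fold change of -1.25 ± 0.21 (SE; edgeR, adjusted p = 0.00977). Both calls held without any 1 liver.

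Ppara, the nuclear receptor that drives fatty acid oxidation in fasting liver, was the most abundant of the 3. It was at 661, 682, 666 and 676 CPM in WT and 564, 564, 523 and 492 CPM in HKO replicates 1 to 4. The log2 fold change was -0.33 ± 0.08 (SE; edgeR, adjusted p = 0.0358), and the call was lost in 7 of 8 fits that left out 1 liver, all but that without HKO replicate 1, and with the replicate number as a block (adjusted p = 0.0829). The groups did not overlap, and the direction was the same in all 8 fits. The 2 stellate cell markers called lower in HKO had the same direction as these 3 genes and the 3 further genes below that fell. The 4 hepatocyte markers called had the opposite direction. The part of cell content in these results was not tested.

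Among 32 genes of mitochondrial DNA maintenance and transcription, 1 rose and none fell, and 5 had an unadjusted p under 0.05. The list median was 0.09, with 22 higher and 10 lower by sign. Tfb1m, a methyltransferase of the small mitochondrial ribosomal RNA, was at 8.6, 7.33, 7.96 and 7.3 CPM in WT and 9.65, 11.9, 10.3 and 11.7 CPM in HKO replicates 1 to 4. The groups did not overlap, with a log2 fold change of 0.48 ± 0.12 (SE; edgeR, adjusted p = 0.0457). The call was near the threshold: it held in 1 of 8 fits without 1 liver (that without HKO replicate 1) and was lost with the replicate number as a block (adjusted p = 0.125), with total count scaling (adjusted p = 0.114), with limma-voom (adjusted p = 0.0506) and with no expression filter (adjusted p = 0.0593). Dna2, a nuclease and helicase of DNA replication, had a log2 fold change of 0.52 (edgeR, adjusted p = 0.0787). Of 9 other settings Dna2 passed in 1, DESeq2 (adjusted p = 0.0492), and not with limma-voom (adjusted p = 0.103). It also passed in 1 of 8 fits without 1 liver. Mterf2, of the mitochondrial termination factor family, had a log2 fold change of -0.34 (edgeR, adjusted p = 0.41).

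Among 26 genes of fusion, inner membrane shape and processing, 3 fell and none rose, and 6 had an unadjusted p under 0.05. The list median was -0.10, with 8 higher and 18 lower by sign. Those that fell are not fusion GTPases. Ghitm, an inner membrane protein, was at 544 to 594 CPM in the WT livers and at 431 to 470 CPM in the HKO livers, a log2 fold change of -0.37 ± 0.07 (SE; edgeR, adjusted p = 0.0165). Miga2, mitoguardin 2, an outer membrane protein that promotes fusion and contacts lipid droplets, was at 37.3 to 44.7 CPM in WT and 20.4 to 32.3 CPM in HKO, a log2 fold change of -0.65 ± 0.13 (SE; edgeR, adjusted p = 0.0165). Pisd, which makes phosphatidylethanolamine in the inner membrane, was at 22 to 27 CPM in WT and 14.9 to 19.3 CPM in HKO, a log2 fold change of -0.51 ± 0.11 (SE; edgeR, adjusted p = 0.0244). In none of the 3 did the groups overlap. Immt, which encodes the cristae organiser mitofilin, is named here after its values were seen. Its means were 138 ± 5.7 CPM for WT and 118 ± 4.27 CPM for HKO (SD, n = 4 each) without overlap. The log2 fold change was -0.23 (edgeR, adjusted p = 0.0888). Immt passed in 2 of 9 other settings, DESeq2 (adjusted p = 0.0329) and total count scaling (edgeR, adjusted p = 0.0337). It did not pass with limma-voom (adjusted p = 0.0859) or with the replicate number as a block (edgeR, adjusted p = 0.184). Nor did it pass in any of the 8 fits without 1 liver. Among the 8 fits without 1 liver the call of Miga2 held in 7, all but that without WT replicate 2, that of Ghitm in 5 (lost without WT replicate 1, WT replicate 2 or HKO replicate 4) and that of Pisd in 4 (lost without WT replicate 1, WT replicate 2, HKO replicate 2 or HKO replicate 4).

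Among 16 genes of fission and its receptors none passed by edgeR, 3 had an unadjusted p under 0.05, and the list median was 0.06, with 13 higher and 3 lower by sign. Mtfp1, an inner membrane protein of fission, was at 12.3 to 13.8 CPM in WT and 12.9 to 20 CPM in HKO, a log2 fold change of 0.36 (edgeR, adjusted p = 0.153). Fmn2, an actin nucleator at 0.76 CPM in WT, had a log2 fold change of 0.32 (edgeR, adjusted p = 0.764). Among 36 genes of mitophagy receptors, the ubiquitin pathway and transport none passed by edgeR, 3 had an unadjusted p under 0.05, and the list median was -0.00, with 18 higher and 18 lower by sign. Pptc7, a mitochondrial phosphatase that restrains mitophagy, was at 20.4 to 32.4 CPM in WT and 31.1 to 42.6 CPM in HKO, a log2 fold change of 0.50 (edgeR, adjusted p = 0.0773). Of 9 other settings Pptc7 passed in 1, DESeq2 (adjusted p = 0.0279), and not with limma-voom (adjusted p = 0.095). It also passed in 1 of 8 fits without 1 liver.

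**Figure D4:**
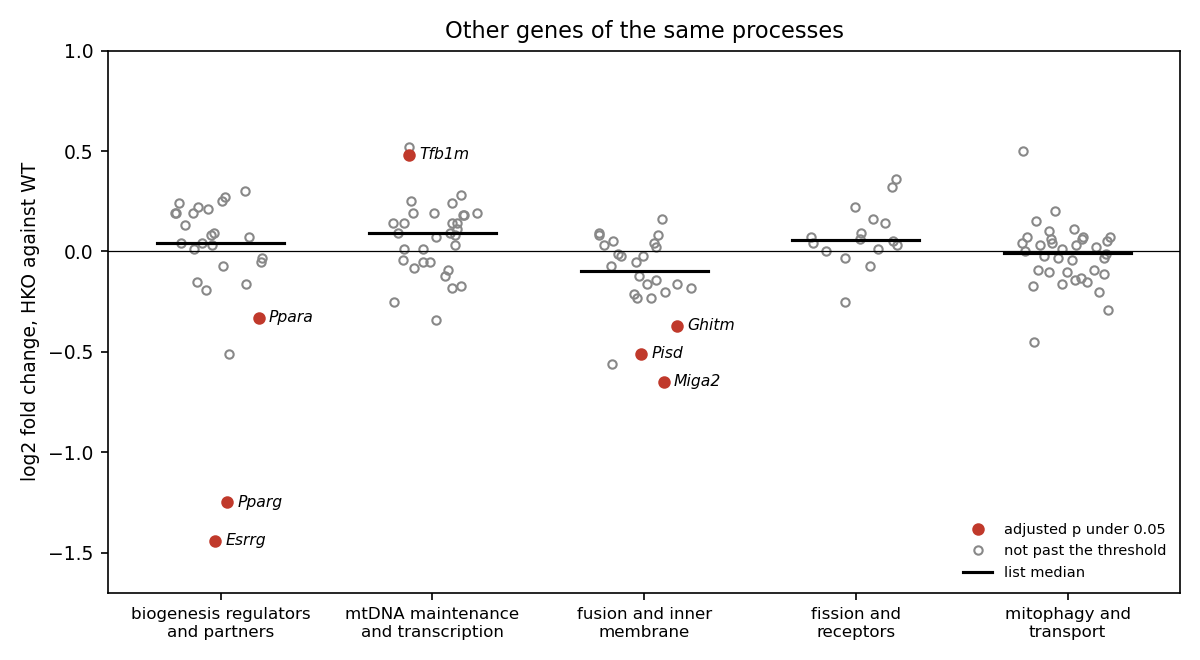
Log2 fold change of HKO against WT for 137 further genes in 5 lists (points, spread sideways so that they can be seen), with list medians as bars. The 7 genes with an adjusted p under 0.05 are filled and named; Esrrg at -1.44 and Pparg at -1.25 lie farthest from 0, and the medians lie between -0.10 and 0.09.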

How the data were processed

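Reads from 4 WT and 4 HKO livers had been aligned with STAR and quantified to an annotation with Partek by the authors, per the labels. They deposited estimated counts per gene from Partek's expectation-maximization method, not normalized, in which 2991 genes have a value more than 0.02 from a whole number. The labels name both rRNA depletion and a small RNA kit, so the library type is uncertain. The build is not given in the sources used here. Symbols, chromosomes and starts were matched to RefSeq GRCm38.p6, on which 17767 of 17789 matched symbols had the same chromosome. The start was the same for 11732 of them. The listed stop was 1 base past the RefSeq end for 11610, and the coordinates were read as GRCm38.

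Estimated counts were rounded and tested with edgeR 4.0.16 in R 4.3.3 (genotype only, TMM scaling, filterByExpr with minimum count 10, robust quasi-likelihood test, Benjamini-Hochberg adjustment over 12395 genes, threshold 0.05). CPM used TMM-scaled library sizes. log2 CPM, with a prior count of 2, entered two-sided exact permutation tests over 70 allocations of the livers. Replicates are separate mice. Counting errors cover counting alone. Counts were simulated for this comparison of 12395 genes, 200 of them changed. On these, edgeR recovered 94% of changes of 2 and 76% of changes of 1 on the log2 scale, and 9.57% of its calls were unchanged genes. Of the DESeq2 calls 15.2% were unchanged genes, and of the limma-voom calls 8.38%. Smaller changes were not simulated, so recovery at the size seen in the 10 genes, at most 0.26, is not known. Alternatives were other scalings and filters, DESeq2 1.42.0, limma-voom (limma 3.58.1), the legacy quasi-likelihood method, a 1.5-fold threshold, a replicate block and leaving out each liver; overlap per total count was added after seeing the data. Replicate numbers occur in both genotypes; same-numbered livers did not deviate together (correlations of -0.148 to 0.012), so no pairing was used.

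Exon lengths, 3′ UTRs and overlaps came from GENCODE M21, sequences from RefSeq (both GRCm38). The genes and lists were chosen with earlier results of these data known. The 10 genes were all named, with every called gene of a list (at most 8 by adjusted p) and, where fewer than 2 passed, the 2 with the largest absolute log2 fold change. For genes called or ranging over more than 1 on the log2 CPM scale, the 3 nearest profiles were named. One gene that this rule would name is not reported here.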

Additional observations from a re-analysis of the deposited data

Results flagged for a closer look

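Among 48 groups of 4 livers examined for a single liver far from the others, 1 stood out: Mterf2, a gene of mitochondrial transcription, was at 4.34 CPM in HKO replicate 4 and at 7.29 to 7.57 CPM in the other HKO livers. The gap to the nearest liver was 0.914 of the group's range, above Dixon's 95% critical value for 4 livers. Chance gives about 1 in 20 such groups, or 2.4 of 48. Ppargc1a in the same liver reached 0.781 and stayed under that value.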

How the results depend on the processing

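None of the 10 genes passed the adjusted threshold in any of 17 alternatives, and 165 of their 170 fold changes kept their sign; the lowest adjusted p was 0.0548, for Pink1 with total count scaling. The sign turned for 3 genes. Without HKO replicate 4 the log2 fold change was -0.19 for Ppargc1a, -0.055 for Ppargc1b and 0.012 for Fis1; it was 0.039 for Fis1 without WT replicate 1 and -0.041 for Ppargc1b with total count scaling. Leaving out 1 liver at a time gave -0.19 to 0.22 for Ppargc1a, -0.06 to 0.13 for Ppargc1b and -0.12 to 0.04 for Fis1. Over all genes 624 passed in the reported test, 1014 with DESeq2, 367 with a fold change above 1.5 and 212 to 598 without 1 liver, lowest without WT replicate 2 (212), WT replicate 1 (272) and HKO replicate 4 (364). Those livers also gave the lowest counts of pathway genes, 2, 3 and 3, in a range of 2 to 8 against 7. Total count scaling moved the median of all genes to -0.08 and the share of calls that were higher from 33% to 16.1%, with no pathway gene called higher; in DESeq2 38% were higher. With the replicate number as a block 456 genes, 5 pathway genes and none of the 10 passed; the livers share only a number. Of the 10 genes Nrf1 had the fewest counts, with a counting error of 13.5% in its shallowest liver.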
